A study of Mus musculus with 8 samples.

Results

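The 6 genes described here encode transcription factors that bind DNA and bring the histone demethylase LSD1 to it: *Gfi1*, *Zeb1*, *Zeb2*, *Rest*, *Prdm1* and *Bcl6*. They were chosen by gene symbol, as known recruiters of LSD1, from the 55335 genes of the count table. Each of the 6 symbols named 1 gene, and all 6 were among the 15378 genes with enough counts to be tested.

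LSD1, encoded by *Kdm1a*, removes methyl groups from histone H3 and does not recognize a DNA sequence by itself. GFI1 holds it through its SNAG domain, a short stretch that resembles the histone tail. ZEB1 and ZEB2 reach it through the corepressor CtBP and REST through CoREST proteins, and BCL6 and PRDM1 (Blimp-1) have also been found bound to it. In CD8+ T cells these factors are known from fate decisions, with Blimp-1 and ZEB2 in effector cells and BCL6 and ZEB1 in memory cells.

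The study asked how T cells that lack LSD1 differ inside a tumor. From tumors of MC38, a mouse colon carcinoma line implanted in C57BL/6 mice, the tumor-infiltrating lymphocytes (TILs) with CD8, CD44 and PD-1 on their surface were sorted, and their rRNA-depleted RNA was sequenced. The 4 wildtype (WT) samples, S1 to S4, came from Lsd1f/f mice, and the 4 knockout (KO) samples, S5 to S8, came from Cd4-Cre+Lsd1f/f littermates. No drug treatment is named for either group, and the floxed *Lsd1* alleles were carried by both groups. Cre under the *Cd4* promoter acts in developing T cells, so that CD4+ T cells of these mice lose LSD1 too. The cells of 2 mice were combined for a WT sample, whereas 1 mouse gave a KO sample, so this difference and the genotype cannot be told apart. The mice were 6 to 10 weeks old when used, between 10000 and 20000 cells were sorted per sample, and the day of collection is given as 18 in the protocol and as 14 in the design description.

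The libraries held 11657807 to 30295406 counts assigned to genes, and levels are given as CPM, counts per 1000000 of the normalized library size. In these units 3 counts were worth 0.105 to 0.250 CPM. *Kdm1a*, the targeted gene, was at 44.6, 47.2, 42.7 and 44.9 CPM in the WT samples and at 25.2, 30.5, 32.0 and 34.8 CPM in the KO samples. Every KO sample lay below every WT sample, with a log2 fold change of -0.55 ± 0.14 (standard error) and an adjusted p of 0.0163 in edgeR's quasi-likelihood test. The counts cover the whole gene, deleted part or not. The markers of the sort were abundant in both groups but not at equal levels. On average *Cd8a* was at 1340 CPM in WT and 1110 CPM in KO samples, and *Pdcd1*, which encodes PD-1, at 610 and 486 CPM. Neither was called. *Cd44* was at 433 CPM in WT and 785 CPM in KO samples and passed both thresholds given below (adjusted p = 0.000107 in edgeR's test). Macrophage and monocyte RNA was also present and differed between the groups. Of 15 myeloid markers listed, 14 were tested, and 11 passed both thresholds given below as lower in KO samples. The summed level of the 14 tested was 303 to 842 CPM in WT and 59.4 to 102 CPM in KO samples. A myeloid score, the mean log2 CPM of these markers, was 5.16 in S3, 3.98 to 4.17 in the other WT samples and 1.33 to 2.07 in the KO samples. The granulocyte markers *S100a9*, *Cxcr2* and *Retnlg* had 0 counts in all samples. The single markers tested of granulocytes, NK cells and tumor epithelium, *Csf3r*, *Klrb1c* and *Cdh1*, were not called (log2 fold changes -2.47, 3.12 and 0.35, and adjusted p 0.176, 0.0338 and 0.411 in edgeR's test).

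The promoters of *Gfi1* and *Bcl6* are shown first, because these are the 2 genes of the 6 whose RNA passed the test. The RefSeq table used (GRCm38.p6) gives, for each annotated start, the 250 bases before it and the 50 after it. It holds 9 such windows for 4 of the 6 genes. In the *Gfi1* window at chr5:107725756-107726055 (minus strand, printed 5′ to 3′) the capitals mark the E-box bound by ZEB proteins, CACCTG or its reverse CAGGTG. In both *Bcl6* windows, on the minus strand of chromosome 16, the capitals mark TTCNNNGAA, the core shared by BCL6 and STAT sites, which reads alike on both strands.
*Gfi1*, chr5:107725756-107726055: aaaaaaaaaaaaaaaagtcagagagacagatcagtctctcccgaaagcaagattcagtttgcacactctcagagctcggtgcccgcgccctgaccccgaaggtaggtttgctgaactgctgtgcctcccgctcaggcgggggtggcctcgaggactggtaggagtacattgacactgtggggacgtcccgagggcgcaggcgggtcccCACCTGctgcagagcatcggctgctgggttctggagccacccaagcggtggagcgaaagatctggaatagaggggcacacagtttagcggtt
*Bcl6*, chr16:23988803-23989102: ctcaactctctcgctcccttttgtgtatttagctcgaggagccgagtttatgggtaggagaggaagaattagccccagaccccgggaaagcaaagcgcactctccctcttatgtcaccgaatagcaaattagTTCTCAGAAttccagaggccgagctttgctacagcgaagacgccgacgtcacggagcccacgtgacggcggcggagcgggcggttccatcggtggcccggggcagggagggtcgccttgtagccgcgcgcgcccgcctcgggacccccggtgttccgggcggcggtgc
*Bcl6*, chr16:23981234-23981533: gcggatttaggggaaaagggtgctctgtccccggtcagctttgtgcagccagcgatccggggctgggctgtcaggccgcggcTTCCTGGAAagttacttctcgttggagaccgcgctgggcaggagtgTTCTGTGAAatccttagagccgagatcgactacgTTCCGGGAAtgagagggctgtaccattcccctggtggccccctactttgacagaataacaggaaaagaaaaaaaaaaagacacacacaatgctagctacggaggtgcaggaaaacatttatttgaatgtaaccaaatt

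The *Bcl6* window at the start of the annotated gene, 23988852, held 1 match to TTCNNNGAA, and the window at a start inside the gene held 3. The last 50 bases of that inner window were not found as an unbroken stretch in any GENCODE transcript of *Bcl6*. Of all 32851 promoter windows 8.30% held at least 1 match, and of the 9 windows of the 6 genes 4 did, the other 2 being overlapping windows of *Zeb2*. The E-box was found in 20.2% of all windows and in 2 of the 9, 1 of *Gfi1* and the window of *Prdm1*. On either strand, the longer sites AATCACNGC for GFI1 (0.919% of all windows), TTCCTAGAA for BCL6 (0.411%), GAAAGTGAA for Blimp-1 (0.581%) and the left part of the REST site, TTCAGCACC (0.371%), were found in 0 of the 9. The short cores AATC of GFI1, found in 73.1% of all windows, and GAAAG of Blimp-1, found in 57.3%, were in 6 and 7 of the 9. These matches describe letters only, and binding was not measured.

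*Gfi1* rose most among the 6 genes in the LSD1-deficient TILs, and *Bcl6* rose as well. The RNA of *Zeb1*, *Zeb2*, *Rest* and *Prdm1* did not pass the test in either direction. A gene was called changed when its fold change exceeded 1.5 and its adjusted p in edgeR's quasi-likelihood test was under 0.01, which are the thresholds of the study. By this rule 2 of the 6 genes were called, both higher. Among all 15378 genes tested, 753 (4.90%) were called, 447 of them higher (2.91%) and 306 lower (1.99%). The median log2 fold change was 0.24 over the 6 genes and -0.01 over all genes tested.

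**Figure D1:**
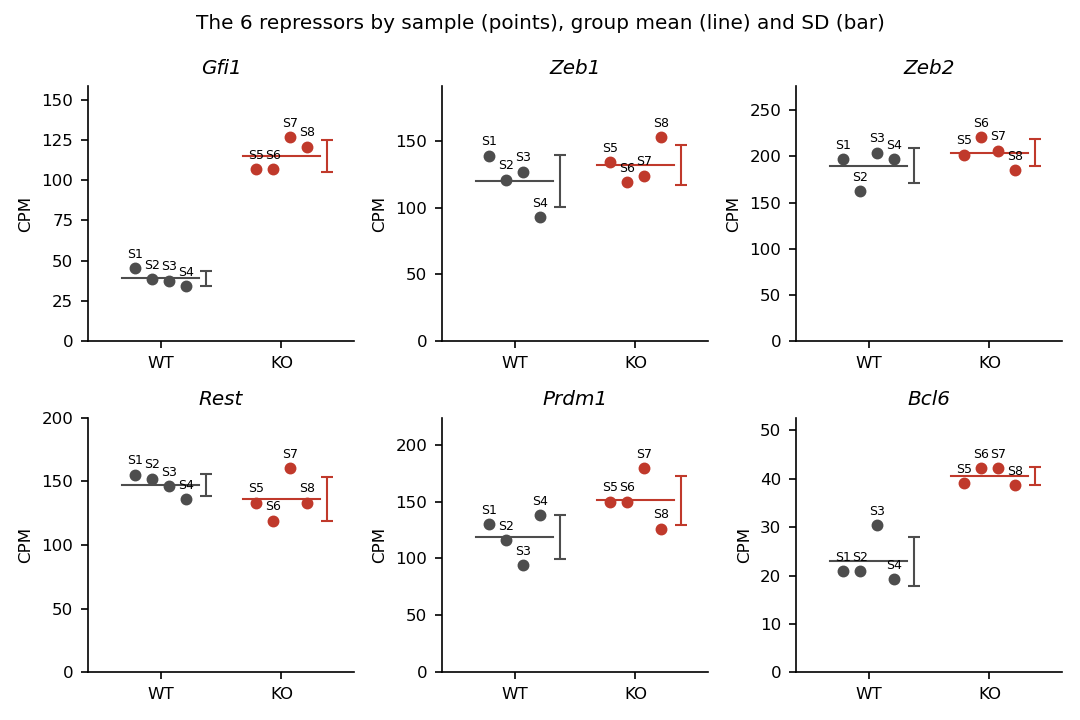
Level of each of the 6 repressor genes in CPM (vertical axes, from 0) in the 4 WT and 4 KO samples (points, named S1 to S8), with the group mean (line) and SD (bar). The KO samples lie above all WT samples for *Gfi1* and *Bcl6*, and the groups overlap for the other 4 genes.

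*Gfi1* (ENSMUSG00000029275.18, chromosome 5 of GRCm38 from 107716657 to 107726036, minus strand) encodes a zinc finger repressor needed in early T cell and neutrophil development. Its level was 45.3, 38.6, 37.5 and 34.1 CPM in the WT samples and 107, 107, 127 and 121 CPM in the KO samples. The groups did not overlap, and all 4 KO samples were higher. The mean was 38.9 ± 4.72 CPM in WT and 115 ± 10.1 CPM in KO samples (SD, n = 4 each), a 2.97-fold rise with a 95% confidence interval of 2.49 to 3.54. On the log2 scale the change was 1.57 (standard error 0.12), with an adjusted p of 2.40e-07 in edgeR's quasi-likelihood test, which placed *Gfi1* at rank 25 of all genes by p. An exact two-sided permutation test over the 70 arrangements of the samples gave p = 0.0286, the smallest that 4 against 4 samples allow. With any 1 sample left out the log2 fold change stayed between 1.51 and 1.65, and the adjusted p was at most 5.05e-06 in edgeR's test.

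The rise of *Gfi1* was measured in samples whose myeloid markers were lower. With the myeloid score as a covariate the log2 fold change of *Gfi1* was 1.09 and its adjusted p 0.48 in edgeR's test, in a fit that called 10 genes higher and 0 lower over the whole table. The scores of the groups did not overlap, so that this value is the difference between the groups extrapolated to an equal score. Among the WT samples *Gfi1* was 37.5 CPM in S3, the sample with the most myeloid RNA, and 34.1 to 45.3 CPM in the others. *Gfi1* shares 101 exon bases with *A430072P03Rik* on the opposite strand, which had 3.76% as many counts. Whether reads were counted by strand is not given in the sources used here. In bulk RNA, more cells that express a gene and more RNA of it per cell cannot be told apart.

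*Bcl6* (ENSMUSG00000022508.5, chromosome 16 from 23965052 to 23988852, minus strand) encodes a repressor known from follicular helper T cells, germinal center B cells and memory CD8+ T cells. It was at 20.9, 20.9, 30.4 and 19.3 CPM in the WT samples and at 39.0, 42.1, 42.1 and 38.7 CPM in the KO samples. The groups did not overlap, S3 stood above the other WT samples, and the KO samples lay close together. The fold change was 1.77 with a 95% interval of 1.39 to 2.25, which reaches below the 1.5-fold threshold. Over all genes tested, 8.99% had every KO sample above every WT sample, and 8.28% had every KO sample below. Among the 6 genes, 2 and 0 did.

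The call of *Bcl6* depended on which samples were included. S3, where *Bcl6* was highest among the WT samples, also had the highest myeloid score. Without S3 its log2 fold change was 0.99 (adjusted p = 0.00068 in edgeR's test), compared with 0.82 (adjusted p = 0.00292) with all samples. It missed the adjusted p threshold without S1, S2, S4 or S7, where the adjusted p reached 0.0146 in edgeR's test, and in a test against a fold change of 1.5 itself (adjusted p = 0.363 with edgeR's glmTreat). Some markers of B cells and CD4+ T cells, which also use *Bcl6*, were higher in KO samples, but most did not pass the test. The summed level of the 3 B cell markers tested, of 6 listed, was 3.95 to 7.59 CPM in WT and 16.3 to 45.9 CPM in KO samples, and most of the KO sum was *Cd22* (3.35 CPM in WT and 26.2 CPM in KO on average), the 1 marker called higher. *Cd79a* averaged 0.303 CPM in WT and 2.07 CPM in KO samples. Every KO sample lay above every WT sample for it, but it was not called (adjusted p = 0.0773 in edgeR's test). *Cd79b* was at 1.81 CPM in WT and 1.28 CPM in KO samples with overlapping groups, and *Ms4a1* and *Pax5* had 2 and 16 counts over all 8 samples. The 3 markers of CD4+ and regulatory T cells summed to 5.58 to 9.70 CPM in WT and 16.5 to 47.1 CPM in KO samples, with *Cd40lg* called higher as 1 of the 3 tested. *Cd4* averaged 4.54 CPM in WT and 14.3 CPM in KO samples (adjusted p = 0.0161 in edgeR's test), and the groups overlapped for *Foxp3* (adjusted p = 0.37). The part of these cells in the level of *Bcl6* was not tested.

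*Prdm1* (ENSMUSG00000038151.13, chromosome 10 from 44437177 to 44528501, minus strand) encodes Blimp-1, a repressor that drives effector and plasma cell differentiation. Its level was 130, 116, 94.2 and 138 CPM in the WT samples and 150, 150, 179 and 126 CPM in the KO samples. S8 lay within the WT range and S3 was the lowest of all. The log2 fold change was 0.34 (95% interval 0.07 to 0.62), with p = 0.0181 before and 0.107 after adjustment in edgeR's quasi-likelihood test, and p = 0.0857 in the exact two-sided permutation test. With the myeloid score as a covariate the estimate was -0.36 (adjusted p = 0.868 in edgeR's test).

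*Bcl6* and *Prdm1* are known to repress each other, so their difference within each sample was also compared. *Bcl6* minus *Prdm1* on the log2 CPM scale was -2.63, -2.46, -1.63 and -2.83 in the WT samples and -1.94, -1.83, -2.09 and -1.70 in the KO samples. The groups overlapped through S3. The mean difference was -2.39 ± 0.53 (SD, n = 4) in WT and -1.89 ± 0.16 (SD, n = 4) in KO samples, and the shift of 0.50 gave p = 0.143 in an exact two-sided permutation test. Without S3 the shift was 0.75 and p = 0.0286 in the same exact test. Leaving out the sample through which the groups overlapped sets p to its smallest possible value, so this is no separate support. With any other sample left out, p was 0.143 to 0.286 in that test.

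The ZEB paralogs, repressors known from the epithelial-mesenchymal transition, did not pass the test. *Zeb1* (ENSMUSG00000024238.15, chromosome 18 from 5591860 to 5775467, plus strand) was at 139, 121, 127 and 92.7 CPM in the WT samples and at 134, 119, 124 and 153 CPM in the KO samples. *Zeb2* (ENSMUSG00000026872.18, chromosome 2 from 44983632 to 45117395, minus strand) was at 197, 162, 204 and 197 CPM in the WT samples and at 202, 221, 206 and 185 CPM in the KO samples. The groups overlapped for both genes. The fold change of *Zeb1* was 1.10 (95% interval 0.919 to 1.33, adjusted p = 0.545 in edgeR's test), and that of *Zeb2* was 1.07 (0.924 to 1.24, adjusted p = 0.611). Both intervals end below 1.5-fold. *Zeb1* minus *Zeb2* on the log2 CPM scale was -0.67 ± 0.29 (SD, n = 4) in WT and -0.63 ± 0.26 (SD, n = 4) in KO samples, a shift of 0.05 with p = 0.8 in an exact two-sided permutation test.

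*Rest* (ENSMUSG00000029249.15, chromosome 5 from 77265491 to 77286432, plus strand) encodes the repressor that keeps neuronal genes off outside neurons. Its level was 155, 152, 146 and 136 CPM in the WT samples and 133, 119, 160 and 133 CPM in the KO samples. Of the KO samples 3 lay below all WT samples and S7 lay above them. The fold change was 0.926 (95% interval 0.793 to 1.08), with an adjusted p of 0.584 in edgeR's quasi-likelihood test and p = 0.314 in the exact two-sided permutation test.

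**Figure D2:**
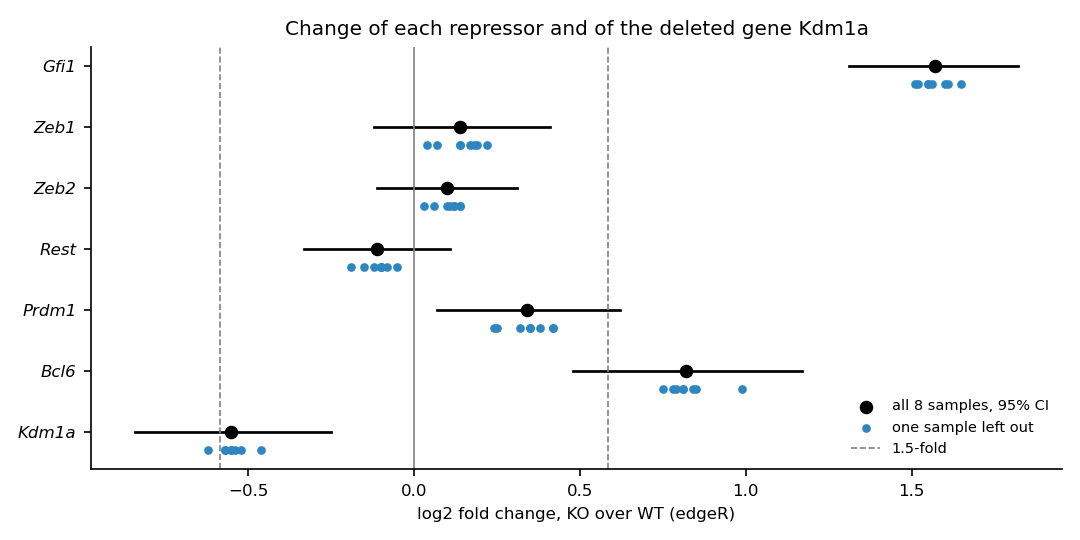
Log2 fold change of KO over WT (horizontal axis) for the 6 repressor genes and *Kdm1a*, from the edgeR fit of all 8 samples (black points, with 95% confidence intervals as lines) and with 1 sample left out (blue points). The dashed lines stand at 1.5-fold. *Gfi1* lies at 1.57 and *Bcl6* at 0.82, and the intervals of *Zeb1*, *Zeb2* and *Rest* include 0.

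The order of the 6 genes also differed between the groups. Levels were compared between genes per length, as CPM per kilobase of exon. In WT samples *Prdm1* was highest with a mean of 21.4, followed by *Rest* with 20.4, *Gfi1* with 12.2, *Zeb1* with 11.7, *Zeb2* with 9.53 and *Bcl6* with 3.41. On this scale the ranges of *Prdm1* and *Rest*, of *Gfi1* and *Zeb1*, and of *Zeb1* and *Zeb2* overlapped in WT samples. In KO samples *Gfi1* was highest with 36.2, followed by *Prdm1* with 27.1, *Rest* with 18.9, *Zeb1* with 12.9, *Zeb2* with 10.2 and *Bcl6* with 6.04, and by merged exon length no neighbors in this order overlapped in range. *Gfi1* thus moved from rank 3 to rank 1 per length. When the length of the longest transcript was used instead, it moved from rank 5 to rank 1, since the means of *Zeb1* and *Zeb2* in WT samples were then 20.7 and 20.8. By that length the KO order below *Prdm1* also changed, with *Zeb1* at 22.8, *Zeb2* at 22.3, *Rest* at 19.4 and *Bcl6* at 10.3. In WT samples *Prdm1* stood above 86.8%, *Gfi1* above 76.4% and *Bcl6* above 42.1% of all genes tested in level per length.

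**Figure D3:**
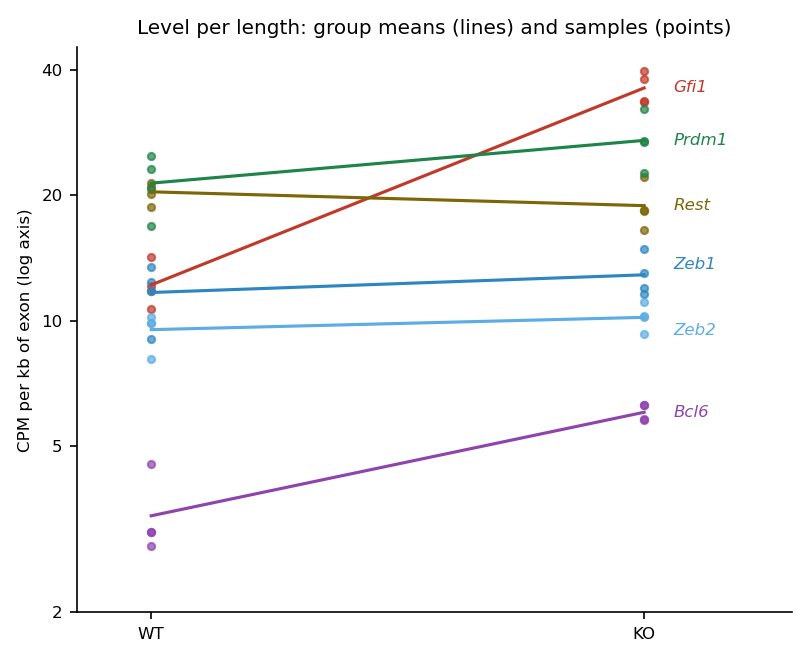
Level per length of the 6 repressor genes in CPM per kilobase of exon (vertical log axis) in WT and KO samples, with samples as points and group means joined by lines. *Gfi1* goes from 12.2 to 36.2 and crosses *Rest* and *Prdm1*, while *Bcl6* stays the lowest at 3.41 and 6.04.

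The genes whose levels across the 8 samples were most like those of each repressor were listed as a description. The 8 points share the split by genotype, so for called genes this likeness holds the difference between groups. For every repressor, called or not, each r is among the highest of many genes over only 8 points. High values can thus come from the choice alone, and no r was tested. For *Gfi1* they were *Axin2*, a Wnt pathway feedback gene (Pearson r = 0.996 over 8 samples), and *Herc3* (r = 0.990), with log2 fold changes of 1.24 and 0.78. For *Bcl6* they were *Enc1* (r = 0.995) and *Plcd1* (r = 0.990), with log2 fold changes of 1.31 and 1.75. For *Prdm1* they were *Crkl* (r = 0.970) and *Gmds* (r = 0.966), for *Zeb1* they were *Gm19327* (r = 0.968) and *Fbrsl1* (r = 0.959), for *Zeb2* they were *Gm26397* (r = 0.963) and *Irak4* (r = 0.947), and for *Rest* they were *Tmem214* (r = 0.943) and *Ddx41* (r = 0.931).

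Genes that GFI1, BCL6 and Blimp-1 are known to repress, listed from general knowledge, included genes called in both directions. These lists, too, were chosen with earlier results of these data known. Over all genes tested, as given above, 2.91% were called higher and 1.99% lower. Of 13 genes known to be repressed by GFI1, 9 were tested, 2 were called higher and 2 lower, and their median log2 fold change was -0.17. The higher ones were *Il7r*, the IL-7 receptor alpha chain (184 CPM in WT and 424 CPM in KO on average, log2 fold change 1.20, adjusted p = 4.65e-06 in edgeR's test), and *Csf1*, a macrophage growth factor (95.3 and 271 CPM, log2 fold change 1.51). The lower ones were *Csf1r*, the receptor of that factor, which is also on the list of myeloid markers (45.0 and 5.81 CPM, log2 fold change -2.97), and *Irf8*, a factor of myeloid and effector T cells (446 and 268 CPM, log2 fold change -0.74). *Id2*, *Cdkn1a* and *Id1* were not called, with log2 fold changes of -0.17, 0.28 and -0.87. *Gfi1* and *Il7r*, a gene it is known to repress, were both called higher, but the activity of GFI1 was not measured.

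Of 14 genes known to be repressed by BCL6, all 14 were tested, 2 were called higher and 1 lower, with a median of 0.24. *Irf4*, a factor of activated T cells, had 189 CPM in WT and 389 CPM in KO samples (log2 fold change 1.04, adjusted p = 1.21e-05 in edgeR's test), *Il7r* is also on this list, and *Bcl2*, which opposes cell death, had 322 and 179 CPM (log2 fold change -0.84, adjusted p = 0.005 in edgeR's test). The call of *Bcl2* was lost with DESeq2, in the test against 1.5-fold, with the myeloid score as a covariate, and without S2, S3, S5, S6 or S7. *Gzmb*, *Ccnd2* and *Selplg* were not called, with log2 fold changes of 0.12, -0.01 and 0.06. Of 11 genes known to be repressed by Blimp-1, 10 were tested, 1 was called higher (*Bcl6* itself) and 3 lower, with a median of -0.46. The lower ones were *Ccr7*, a lymph node homing receptor (170 and 90.9 CPM, log2 fold change -0.90), *Myc*, a growth regulator (72.1 and 33.2 CPM, log2 fold change -1.11) and *Ciita*, the activator of MHC class II genes that myeloid and B cells also use (9.98 and 2.11 CPM, log2 fold change -2.25). *Fos* and *Tcf7* were not called, with log2 fold changes of -0.26 and -0.54. The part of myeloid RNA in the fall of *Ciita*, *Csf1r* and *Irf8* was not tested.

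Genes tied to REST and the ZEB factors gave 1 call in each list of repressed genes, compared with the 4.90% of all genes tested that were called. The lists were chosen with earlier results of these data known, so these counts describe the lists and do not test them. Of 24 neuronal genes known to be repressed by REST, 8 had enough counts to be tested and 1 was called higher, *Nsg2*, a neuronal vesicle protein gene (11.9 CPM in WT and 81.9 CPM in KO, log2 fold change 2.79, adjusted p = 1.06e-08 in edgeR's test). *L1cam*, *Unc13a* and *Stx1a* were not called, with log2 fold changes of 0.43, -1.22 and 1.15. Of 8 genes known to be repressed by ZEB1 or ZEB2, 4 were tested and *Il7r*, also on the GFI1 and BCL6 lists, was called higher. *Cdh1* and *Il2* were not called (log2 fold changes 0.35 and -0.38). Of 7 effector genes linked to ZEB2, all 7 were tested and 0 were called in either direction by edgeR or DESeq2, with 1 higher and 0 lower at an unadjusted p under 0.05 in edgeR's test. *Gzmb*, *Prf1* and *Tbx21* of this list had log2 fold changes of 0.12, 0.16 and 0.28.

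The share of all genes tested that was called higher was 2.91%, and the 2 short lists that follow were not tested against it. Among 14 other DNA-binding partners of LSD1, such as SNAIL family factors, 9 were tested and 1 was called higher. This was *Zfp516*, a zinc finger gene (12.1 CPM in WT and 64.9 CPM in KO, log2 fold change 2.43, adjusted p = 4.77e-07 in edgeR's test). *Zfp217* had a log2 fold change of 0.56 (adjusted p = 0.00283 in edgeR's test), just under the fold threshold, and *Tcf7* and *Snai3* had -0.54 and 0.19. *Gfi1b*, the paralog of *Gfi1*, had 4 counts over all 8 samples. Of the 14 genes of the LSD1 complex all were tested and 1 was called higher, *Gse1* (97.9 and 152 CPM, log2 fold change 0.64, adjusted p = 0.00131 in edgeR's test). *Ctbp1* and *Rcor1*, corepressor genes of the complex, and *Zmym2* were not called, with log2 fold changes of -0.06, 0.25 and 0.27.

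**Figure D4:**
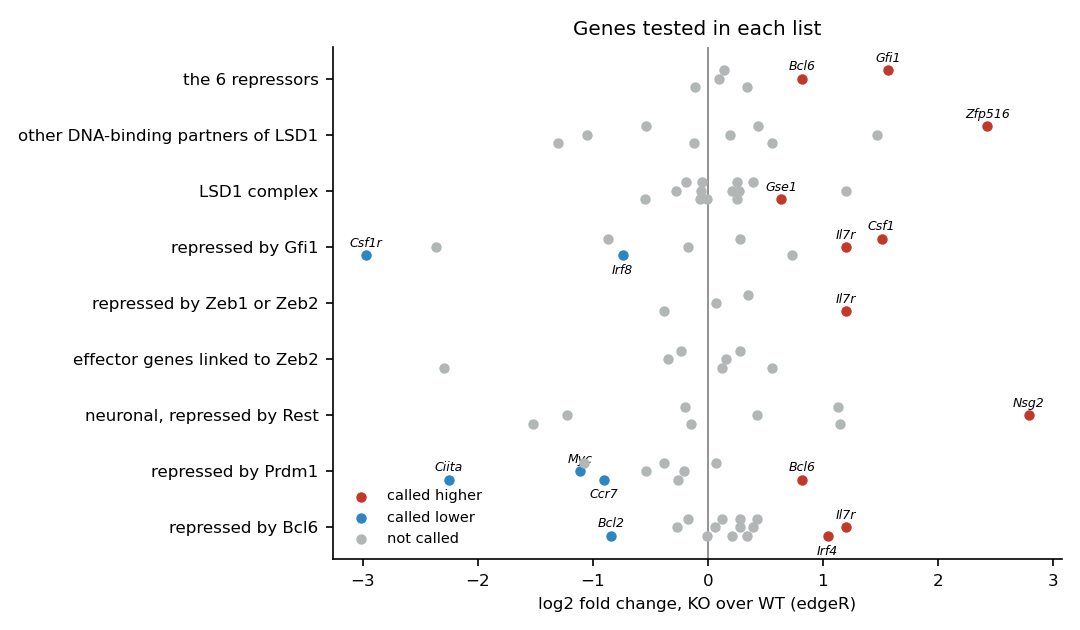
Log2 fold change of KO over WT (horizontal axis) for each gene tested of the 6 repressors, of the other LSD1 partners and complex genes, and of the lists of genes known to be repressed by or linked to them (rows). Red points were called higher, blue points lower and grey points neither, and called genes are named. The lists of GFI1, BCL6 and Blimp-1 hold genes called in both directions, although the lower call in the BCL6 list, *Bcl2*, was lost with DESeq2, in the test against 1.5-fold, with the myeloid score as a covariate, and without S2, S3, S5, S6 or S7.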

How the data were processed

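RNA-seq counts of 8 samples, 4 WT and 4 KO, were used. The authors aligned the reads to GRCm38 (mm10) with STAR and deposited raw counts per gene, made with featureCounts on GENCODE vM23, and their own test used DESeq2. The read length differs between the sources, as does the day of collection. The deposited columns carry only the numbers of S1 to S8, and their genotype was taken from the key of a plot in the study's supplement, so that a column could not be matched to a replicate number. No column of values was left without a group. Counts were analysed with edgeR 4.0.16 in R 4.3.3, with TMM factors, the filter filterByExpr (15378 genes kept) and Benjamini-Hochberg adjustment over all genes tested. CPM values use TMM library sizes, and log2 CPM a prior count of 2. Levels per length used the merged exons of GENCODE M21, which 55154 of the 55335 gene IDs matched. Alternatives were other scalings and filters, DESeq2 1.42.0, a test against 1.5-fold, a GC content offset per sample (mgcv 1.9.3), the myeloid score as a covariate, and leaving out each sample. Pairs of samples within a group differed beyond sampling noise, with a median chi-square over genes of 4.87 to 8.52 over the 12 pairs compared with 0.455 for noise alone. The fit was also run on simulated data, but the pass mark was set after the outcome was seen, so passing it shows little. The genes described, the lists, the motifs and the tests were chosen with earlier results of these data known. The text names the 6 genes, *Kdm1a*, the list genes called and up to 3 not called with the highest level per list, and the 2 most alike genes per repressor with a mean log2 CPM above 2. A few list genes are not reported here. Other markers, *A430072P03Rik* and *Gfi1b* were named after their values were seen. The p-values measure the spread between samples, which were pools of 2 mice in WT and single mice in KO.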

Additional observations from a re-analysis of the deposited data

Results flagged for a closer look

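*Zeb2* in the WT samples had 1 sample apart from the others. S2, at 162 CPM, lay below S1, S3 and S4, which were between 197 and 204 CPM, and its gap to the nearest of them was 0.832 of the whole range on the log2 CPM scale, above Dixon's critical value for 4 samples. This was 1 of 18 groups of values tested, and chance gives about 1 in 20. Without S2 the log2 fold change of *Zeb2* was 0.03, compared with 0.10 with all samples.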

How the results depend on the processing

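No paired analysis was possible because the deposited columns carry no replicate number of the labels. *Gfi1* kept its direction in 18 of 18 alternatives and its call in 17, with log2 fold changes of 1.09 to 1.65. *Bcl6* kept its direction in 18 of 18 and its call in 12, and *Zeb1*, *Zeb2*, *Rest* and *Kdm1a* kept their direction and stayed uncalled in all 18, as *Prdm1* did in 17. With the myeloid score as a covariate *Gfi1* was 1.09 and *Bcl6* 1.75, neither called, *Prdm1* turned to -0.36, and the counts were 0 of the 6 repressors, 10 genes higher and 0 lower over all genes, and 0 higher and 0 lower in the lists of the LSD1 complex and of GFI1, ZEB, REST, Blimp-1 and BCL6 genes. The score separates the genotypes. In the test against 1.5-fold *Bcl6* stayed at 0.82 without a call, and the counts were 1 of the 6 repressors, 165 genes higher and 130 lower over all genes, 1 lower for GFI1 genes, 0 higher and 1 lower for Blimp-1 genes, 0 lower for BCL6 genes and 0 higher for the LSD1 complex. That test asks for more than the 1.5-fold cut alone. Without the filter on low counts 531 genes were lower and with DESeq2 461, compared with 306, and 1 REST gene was lower in both. With DESeq2 0 BCL6 genes were lower (*Bcl2* was lost), and with the GC offset 2 other LSD1 partners were higher. The cause of these was not tested.

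With 1 sample left out, *Bcl6* ranged from 0.75 to 0.99, the repressors called from 1 to 2, and the genes lower over all genes from 199, without S2, to 303. The counts ranged from 1 to 2 for other LSD1 partners higher, from 0, without S5, to 1 for the LSD1 complex higher, from 0 to 1, without S5, for REST genes lower, from 0 to 1 for Blimp-1 genes higher and from 0 to 2, without S8, for BCL6 genes lower. The shift of *Bcl6* minus *Prdm1* ranged from 0.35 to 0.75, the latter without S3, and that of *Zeb1* minus *Zeb2* from -0.09 to 0.14, below 0 without S4 or S8. Other scalings moved the median log2 fold change of all genes by less than 0.1. With 4 samples a group, exact permutation p-values cannot go below 0.0286.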
